A study of Homo sapiens with 6 samples.

Results

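The 5 EPHB receptors EPHB1, EPHB2, EPHB3, EPHB4 and EPHB6 and the 3 ephrin-B ligands EFNB1, EFNB2 and EFNB3 were followed through 6 RNA-seq libraries of KGN cells, 8 of 58336 genes in the tables. The genes were taken by GENCODE symbol from the Ensembl gene IDs, and all 8 were found once. KGN is a cell line from a human granulosa cell tumour of the ovary. The tested libraries were FOXL2 WT/C134W (clones 3.11 and 44b, and a library whose title joins both names, 3.11-44b), set against FOXL2 WT/WT (clones 44a and 4.72, and the joined 4.72-44a), in which CRISPR/Cas9 had reverted the C134W mutation of this forkhead transcription factor. RNA of every library was isolated 30 h after a transfection, and what was transfected is not stated in the labels. The labels record editing for WT/WT alone, so genotype and editing cannot be told apart. Each genotype rests on 2 single clones, and the labels do not say whether libraries came from separate cultures. The family was chosen by measured values, since EPHB2 had one of the smaller unadjusted p-values between the genotypes in these libraries. The genotype comparison of the 8 genes is therefore a description and carries no test.

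EphB receptors are tyrosine kinases of the cell surface that bind ephrin-B ligands on neighbouring cells. Because ephrin-Bs span the membrane and have a cytoplasmic tail of their own, contact signals into both cells, forward through the receptor and in reverse through the ligand. The system is known for cell sorting, boundary formation, axon guidance and the separation of arteries (ephrin-B2) from veins (EphB4), and EPHB2 and EPHB3 are known targets of Wnt signalling in the gut epithelium.

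Summed expected counts (RSEM's estimate of reads per gene) lay between 35332727 and 46613068 per library, so 3 counts, the limit that a count of 0 allows, equalled at most 0.0783 CPM (counts scaled to 1000000 per library, TMM-normalised). Of 10 granulosa cell markers, FSHR, AMHR2 and GATA4 had 0 counts in all 6 libraries and CYP19A1 and INHA stayed under 1 TPM (transcripts per 1000000, scaled for length). The 10 markers summed to 74.0 to 135 TPM in WT/C134W and 143 to 161 TPM in WT/WT, without overlap. FST (follistatin) was the most abundant, at 40.4, 96.8 and 86.1 TPM in 3.11, 44b and the joined library (WT/C134W), against 105, 125 and 109 TPM in 44a, 4.72 and the joined library (WT/WT). NR5A1 stood at 19.4 to 21.7 TPM in WT/C134W and 22.8 to 26.7 TPM in WT/WT, and INHBB at 3.26 to 4.1 TPM in WT/C134W and 4.68 to 9.89 TPM in WT/WT. STAR went the other way, at 3.89 to 6.47 TPM in WT/C134W and 2.01 to 2.86 TPM in WT/WT. The 8 endothelial markers, listed because EphB4 and ephrin-B2 are textbook vessel genes, summed to 1.76 to 5.5 TPM in WT/C134W and 0.88 to 3.22 TPM in WT/WT, with CDH5 at 0 counts throughout. FOXL2 itself had 5.25, 5.48 and 3.47 TPM in WT/C134W (3.11, 44b and joined) and 3.7, 2.36 and 2.17 TPM in WT/WT (44a, 4.72 and joined), and gene totals do not show the allele.

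EFNB2, EPHB2 and EPHB4 carried nearly all of the family's transcripts, and their order differed between the genotypes. In all 3 WT/C134W libraries the order in TPM was EPHB2, EPHB4, EFNB2. In all 3 WT/WT libraries it was the reverse, EFNB2, EPHB4, EPHB2. The other 5 genes stayed at or below 4.29 TPM in every library.

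The promoters of EPHB2 and EFNB2 are shown first, the receptor and the ligand that stood furthest apart between the genotypes among the abundant members. Each is the 250 bases upstream of the start site in RefSeq (GRCh38.p14), 5′ to 3′ on the gene's strand, with GC boxes (GGGCGG or its reverse complement CCGCCC) in capitals. The EPHB2 window is chr1:22710589-22710838 on the plus strand and the EFNB2 window chr13:106535663-106535912 on the minus strand.
EPHB2: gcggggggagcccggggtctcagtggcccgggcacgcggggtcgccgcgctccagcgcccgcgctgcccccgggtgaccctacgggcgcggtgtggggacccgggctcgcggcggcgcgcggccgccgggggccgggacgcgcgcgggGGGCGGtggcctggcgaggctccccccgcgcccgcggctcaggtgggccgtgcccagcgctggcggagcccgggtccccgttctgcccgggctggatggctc
EFNB2: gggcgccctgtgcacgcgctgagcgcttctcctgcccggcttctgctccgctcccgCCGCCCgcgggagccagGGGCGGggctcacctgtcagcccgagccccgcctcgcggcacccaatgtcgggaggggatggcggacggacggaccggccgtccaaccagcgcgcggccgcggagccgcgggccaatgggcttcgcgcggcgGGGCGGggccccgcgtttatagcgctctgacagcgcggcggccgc
Both windows were rich in G and C, at 84.8% for EPHB2 and 78.4% for EFNB2, against a median of 58.0% over 35116 RefSeq promoter windows. EPHB2 held 1 GC box and EFNB2 held 3, and 42.6% of all windows held at least 1. The forkhead core GTAAACA, searched on both strands, was in 0 of the 7 members' windows that RefSeq gave and in 2.98% of all windows. A RefSeq window was found for every member other than EFNB3, and where there were several the one nearest GENCODE's gene start was used. For EPHB1 and EPHB6 that window lay well inside the gene. The EPHB1 window was chr3:134795010-134795259, with a gene start at 134597801. The EPHB6 window was chr7:142862506-142862755, with a gene start at 142855061. Sequence at those 2 gene starts was not searched. The TCF/LEF core CTTTGAT was in 0 of the 7 (2.26% of all windows), and the RBPJ core TGGGAA was in EFNB1 alone (20.8% of all windows).

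EPHB2 (ENSG00000133216, chromosome 1, 22710839 to 22921500, plus strand, GRCh38) encodes a receptor with roles in axon guidance and in the positioning of gut epithelial cells. Its level was 89.2 CPM in 3.11, 109 CPM in 44b and 101 CPM in the joined library of WT/C134W, against 42.0 CPM in 44a, 48.2 CPM in 4.72 and 39.9 CPM in the joined library of WT/WT. Every WT/C134W library stood above every WT/WT library. In bulk RNA, fewer cells that express a gene and less RNA per cell cannot be told apart. The single clones averaged 99.3 ± 14.3 CPM in WT/C134W and 45.1 ± 4.38 CPM in WT/WT (SD, n = 2 each). On the log2 scale the fitted difference between genotypes (always WT/C134W relative to WT/WT) was 1.14 ± 0.18, or 2.2-fold, with an SE taken from edgeR's F value. Per length the receptor had 43.7 ± 3.78 TPM in WT/C134W and 17.3 ± 0.0919 TPM in WT/WT.

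EPHB2 stood beside a broader difference between the same libraries. All 12 proliferation markers had positive fold changes, and their summed level was 705 to 1290 TPM in WT/C134W and 298 to 585 TPM in WT/WT. The 8 fibroblast markers, COL1A1 among them, summed to 4770 to 5610 TPM in WT/C134W and 8390 to 10300 TPM in WT/WT. The sum of the granulosa cell markers, as given above, also differed without overlap. FST made up most of that sum in every library, at 40.4 to 96.8 TPM in WT/C134W and 105 to 125 TPM in WT/WT. NR5A1 and INHBB went the same way as FST, STAR went the other way and FOXL2 overlapped. Other marker lists overlapped between the genotypes. The 7 epithelial markers summed to 6.98 to 67.0 TPM in WT/C134W and 4.3 to 120 TPM in WT/WT. The 7 leukocyte markers summed to 93.9 to 106 TPM in WT/C134W and 93.5 to 101 TPM in WT/WT. The endothelial markers, given above, overlapped too. The part of the proliferation, fibroblast and granulosa cell lists in the values of EPHB2 and EFNB2 was not tested.

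EPHB4 (ENSG00000196411, chromosome 7, 100802565 to 100827521, minus strand), the receptor known from veins, was nearly level across the libraries. It stood at 60.4, 66.0 and 63.6 CPM in 3.11, 44b and their joined library (WT/C134W), against 69.5, 65.1 and 62.3 CPM in 44a, 4.72 and their joined library (WT/WT). The genotypes overlapped, and the log2 fold change was -0.09 ± 0.15 (SE). The 5′ end of EPHB4 overlaps SLC12A9 on the opposite strand, a gene with 861 to 1184 counts per library, and how strand was handled in the counting is not given. In TPM the 2 clones named 44 were higher, 33.9 in 44b and 34.0 in 44a, than 25.1 in 3.11 and 26.0 in 4.72, a split that the CPM values did not show at that size.

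EPHB3 (ENSG00000182580, chromosome 3, 184561784 to 184582409, plus strand), a receptor that acts with EphB2 in the mouse palate and gut, was rare. It had 5.12, 2.78 and 3.94 CPM in 3.11, 44b and the joined library (WT/C134W), against 2.06, 2.09 and 1.64 CPM in 44a, 4.72 and the joined library (WT/WT). The groups did not overlap, but 3.11 and 44b lay further from each other than 44b lay from the WT/WT clones. The log2 fold change was 0.92 ± 0.53 (SE), and 0.42 without 3.11.

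EPHB1 (ENSG00000154928, chromosome 3, 134597801 to 135260467, plus strand), a receptor best known from the crossing of retinal axons at the optic chiasm, varied more between clones than between genotypes. Its level was 0.314, 12.9 and 10.4 CPM in 3.11, 44b and the joined library (WT/C134W), against 8.41, 1.48 and 2.97 CPM in 44a, 4.72 and the joined library (WT/WT). Each genotype thus held 1 high and 1 low clone, the high ones being 44b and 44a. The log2 fold change of 0.42 ± 1.78 (SE) became -3.97 without 44b and 2.14 without 44a.

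EPHB6 (ENSG00000106123, chromosome 7, 142855061 to 142871094, plus strand), a receptor that lacks kinase activity, had the fewest reads. It had 0, 92 and 21 counts in 3.11, 44b and the joined library (WT/C134W), against 22, 4 and 7 counts in 44a, 4.72 and the joined library (WT/WT). In 3.11 a count of 0, taken as at most 3 counts, allows up to 0.0725 CPM. The clone 44b had 2.03 CPM with a 95% Poisson interval of 1.64 to 2.49. Again 44b and 44a were the higher clone of their genotype, and without 44b the 1 WT/C134W clone left had no reads. Such intervals and limits cover counting error only.

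EFNB2 (ENSG00000125266, chromosome 13, 106489731 to 106535662, minus strand) encodes ephrin-B2, the arterial ligand and a partner of EphB4 and EphB2. Its level was 32.1 CPM in 3.11, 85.3 CPM in 44b and 59.7 CPM in the joined library of WT/C134W, against 164 CPM in 44a, 156 CPM in 4.72 and 162 CPM in the joined library of WT/WT. Every WT/C134W library lay below every WT/WT library, and the mutant clones were spread while the reverted ones lay together. The single clones averaged 58.7 ± 37.6 CPM in WT/C134W and 160 ± 5.67 CPM in WT/WT (SD, n = 2 each). The log2 fold change was -1.45 ± 0.48 (SE), a level 2.73-fold higher in WT/WT. Without 3.11 it was -0.91, and without 44b it was -2.33, so the size depended on the mutant clone used. The 2 mutant clones differed by 1.40 on the log2 scale, with 0.5 added to each CPM. An antisense transcript within the gene, AL138689.2, had at most 30.8 counts in a library, against at least 1328 for EFNB2.

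EFNB1 (ENSG00000090776, chromosome X, 68828997 to 68842147, plus strand), the ligand mutated in craniofrontonasal syndrome, differed little. It had 8.22, 7.69 and 7.44 CPM in 3.11, 44b and the joined library (WT/C134W), against 6.66, 6.09 and 5.72 CPM in 44a, 4.72 and the joined library (WT/WT). The genotypes did not overlap, and the log2 fold change was 0.32 ± 0.31 (SE). All 3 WT/C134W values lay above all 3 WT/WT values, but the counting intervals of the nearest pair overlapped, 6.6 to 8.35 CPM in 3.11-44b and 5.92 to 7.47 CPM in 44a.

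EFNB3 (ENSG00000108947, chromosome 17, 7705202 to 7711378, plus strand), the ligand of the neural midline in mice, followed the clones as EPHB1 did. It had 0, 2.12 and 3.24 CPM in 3.11, 44b and the joined library (WT/C134W), against 4.67, 0.197 and 0.974 CPM in 44a, 4.72 and the joined library (WT/WT). The clones named 44 were the higher of each genotype, and the genotypes overlapped. The single clones gave a log2 fold change of -1.19 ± 2.35 (SE). The joined libraries stood the other way round, 1.34 apart on the log2 scale with 0.5 added to each CPM.

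**Figure D1:**
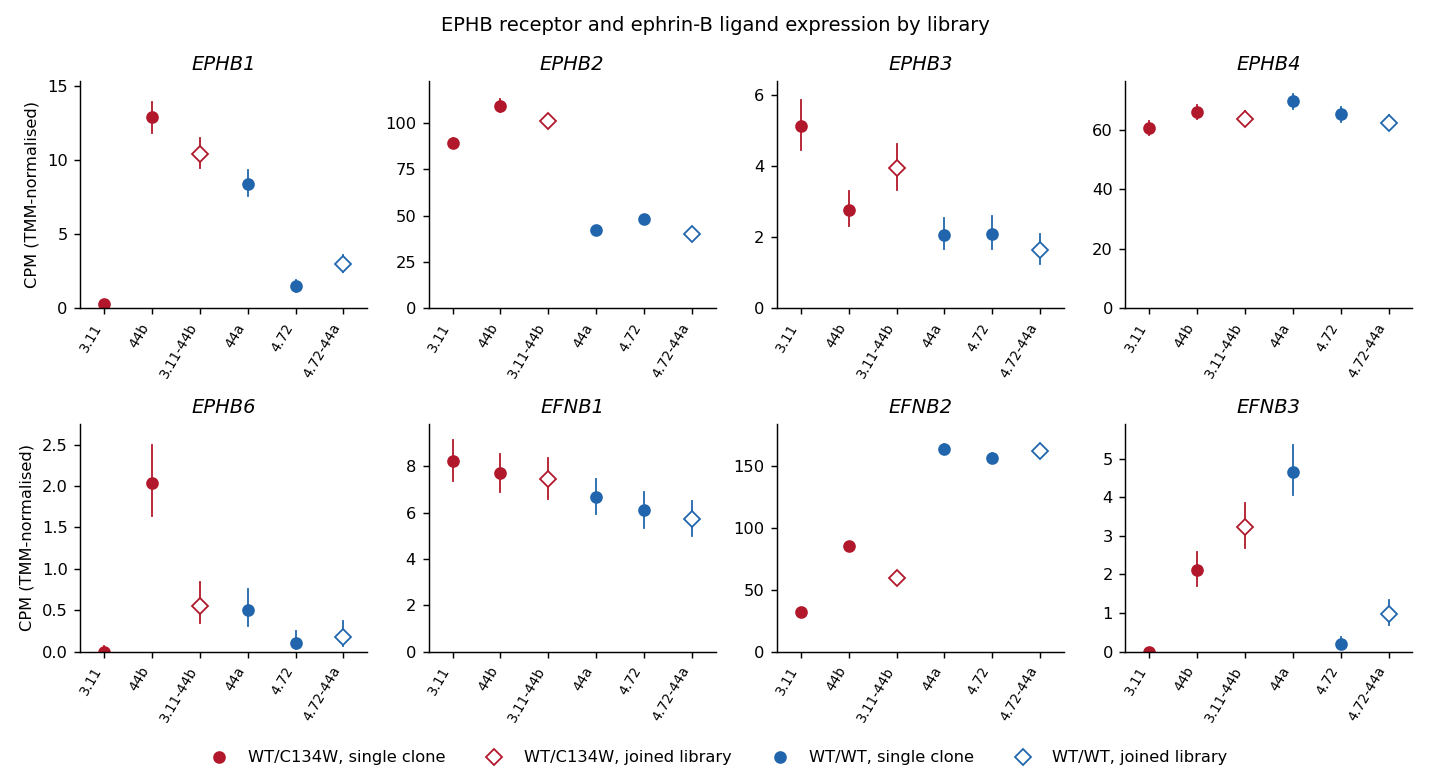
TMM-normalised CPM (y axis, linear, from 0) of each gene in the 6 libraries, WT/C134W in red and WT/WT in blue, filled circles for single clones, open diamonds for joined libraries and bars for 95% Poisson intervals of the counts (at a count of 0, up to the limit of 3 counts). EPHB2 is higher and EFNB2 lower in every red library, EPHB4 is level at 60.4 to 69.5 CPM, and EPHB1, EPHB6 and EFNB3 are high in 44b and 44a and low in 3.11 and 4.72.

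Of the 8 members, all of which passed the low-count filter, 3 stood higher in both WT/C134W clones than in both WT/WT clones (EPHB2, EPHB3 and EFNB1), 1 stood lower (EFNB2) and 4 overlapped. Of all 16416 genes tested 19.9% were higher without overlap and 19.7% lower. The median log2 fold change of the members was 0.37 and that of all tested genes 0.01, and 5 members were positive and 3 negative. The fold changes of EPHB1, EPHB6 and EFNB3 changed sign between alternative fits, so the members' median does not show a shared rise. No gene of the 16416 had an adjusted p under 0.05 in edgeR's test (0.0%), while 1243 genes (7.57%) had an unadjusted p under 0.05. DESeq2 called 283 genes (2.04% of 13870 with an adjusted p). In counts simulated with the variation estimated from the 4 clones (dispersion 0.216), edgeR called 14 of 200 genes changed 4-fold. DESeq2 called 57 of them. A count of 0 in edgeR's test therefore does not show that genes were level. In the same simulated counts DESeq2 also called 11 unchanged genes and edgeR 0, so DESeq2's calls here can include false ones.

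Ligand and receptor transcripts stood in a different balance in the 2 genotypes. Summed EPHB receptor TPM was 71.2, 87.9 and 78.8 in 3.11, 44b and the joined library (WT/C134W), against 56.4, 44.4 and 41.1 in 44a, 4.72 and the joined library (WT/WT). Summed ephrin-B TPM was 15.6, 34.1 and 25.5 in the same WT/C134W libraries, against 57.0, 52.4 and 55.0 in the WT/WT libraries. Receptor sums were thus higher and ligand sums lower in each WT/C134W library. The ligand to receptor ratio was 0.219, 0.388 and 0.323 in WT/C134W, against 1.01, 1.18 and 1.34 in WT/WT. On the log2 scale the single clones of WT/C134W lay 1.91 below those of WT/WT (pooled SD 0.428), a ratio 3.75-fold higher in WT/WT. The receptor sum includes EPHB2, whose p-value led to the choice of this family. The difference in ratio therefore draws on the value used for the choice and is a description only.

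Both EPHB2 and EFNB2 entered this difference. EPHB2 made up 57.5%, 52.7% and 54.1% of EPHB TPM in 3.11, 44b and the joined library (WT/C134W), against 30.8%, 38.8% and 35.4% in 44a, 4.72 and the joined library (WT/WT). EFNB2 made up 74.0%, 86.3% and 79.8% of ephrin-B TPM in WT/C134W and 91.2%, 94.9% and 94.7% in WT/WT. The ratio of EFNB2 to EPHB2 alone was 0.281, 0.635 and 0.477 in WT/C134W, against 2.99, 2.88 and 3.58 in WT/WT. The ratio of EFNB2 to EPHB4, the vascular pair, was 0.46, 0.868 and 0.656 in WT/C134W, against 1.53, 1.91 and 2.2 in WT/WT.

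**Figure D2:**
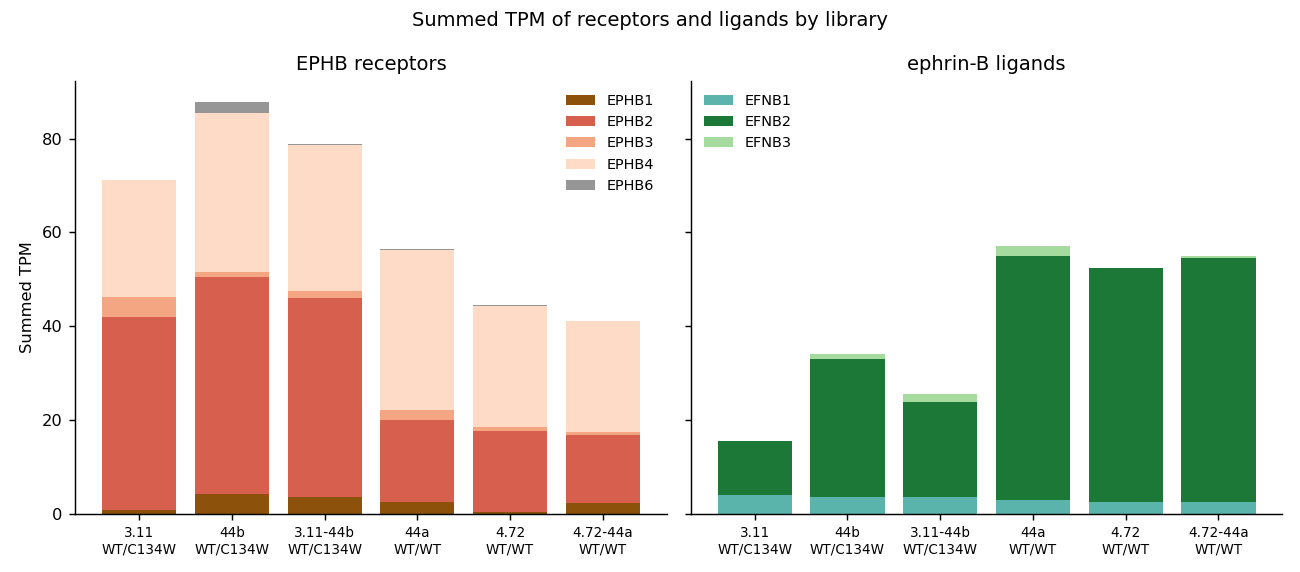
Summed TPM (y axis) of the 5 receptors (left) and the 3 ligands (right) in each library, WT/C134W libraries on the left of each panel, with 1 colour per gene. Receptor bars reach 71.2 to 87.9 TPM in WT/C134W and 41.1 to 56.4 TPM in WT/WT, and ligand bars 15.6 to 34.1 and 52.4 to 57.0 TPM.

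The tables also carry, for each gene and library, a transcript length averaged over isoforms by their estimated abundance, a measure that the choice of genes did not use. Where it equals the length of 1 annotated transcript, all reads of the gene were assigned to that transcript. EFNB1 and EFNB3 have 1 transcript each, and their lengths were fixed. EFNB2 kept within 4403 to 4589 bases. GENCODE lists for it coding transcripts of 4461 and 4995 bases and a processed one of 3836 bases, so these values can be mixes of the 3.

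EPHB1 reads were all assigned to the longest coding transcript, of 4672 bases, in 44b, 3.11-44b, 44a and 4.72. In 3.11 all 13 reads were assigned to a transcript of 729 bases that GENCODE lists as processed, with no coding sequence. In the library 4.72-44a the length was 1963 bases. EPHB1 in 3.11 was therefore 0.87 TPM, above the 0.44 TPM of 4.72, while its count was 13 against 60. The order of these 2 clones depended on the scale.

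EPHB3 showed the same dependence. Its reads were assigned wholly to the coding transcript of 4236 bases in 44b, 3.11-44b, 4.72 and 4.72-44a, while the weighted length was 2020 bases in 3.11 and 1441 bases in 44a. The only other transcripts of the gene are retained-intron transcripts of 482 and 486 bases. The lengths put 59.0 to 59.1% of EPHB3 transcripts in 3.11 and 74.5% in 44a on these short forms. They held 10.0 to 10.2% of the EPHB3 reads in 3.11 and 18.7 to 19.0% in 44a. EPHB3 accordingly had 2.22 TPM in 44a and 0.69 TPM in 4.72, at 91 and 85 reads. The TPM of EPHB3 overlapped between genotypes, although its CPM did not.

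EPHB6 reads were assigned in 44a, 4.72 and 4.72-44a to a transcript of 3224 bases annotated as a target of nonsense-mediated decay. In 44b its weighted length was 1457 bases and in 3.11-44b 3703 bases. These assignments rest on 4 to 92 reads. EPHB2 ranged over 3546, 3685 and 3736 bases in 3.11, 44b and the joined library (WT/C134W) and 3482, 3925 and 3941 bases in 44a, 4.72 and the joined library (WT/WT), with overlap. EPHB4 ranged over 3907, 3064 and 3258 bases in WT/C134W and 2971, 3536 and 3798 bases in WT/WT, again with overlap. Its lengths in 44b and 44a were shorter than in 3.11 and 4.72. TPM is scaled by this length and CPM is not, and 44b and 44a were the clones with the higher EPHB4 TPM.

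**Figure D3:**
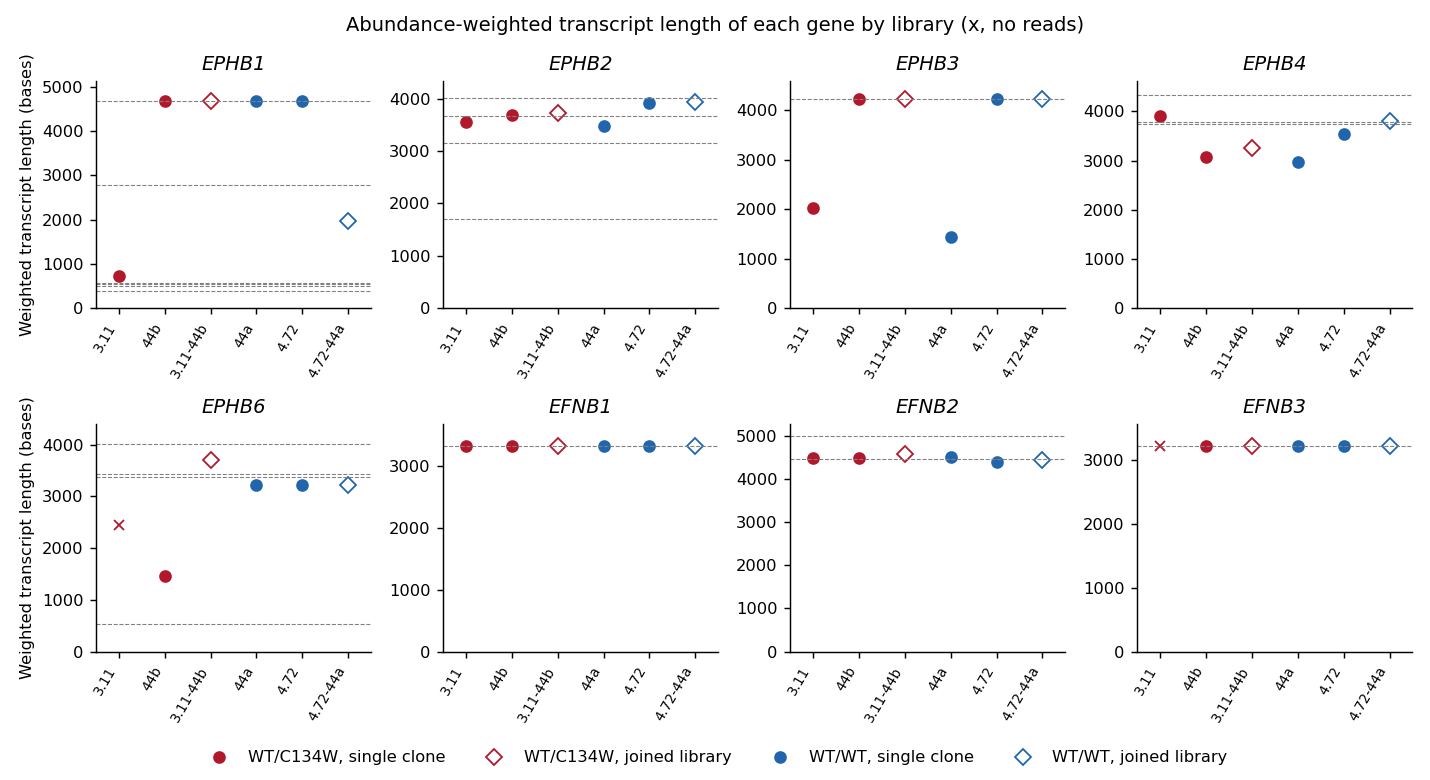
Abundance-weighted transcript length in bases (y axis, from 0) of each gene in the 6 libraries, symbols as in the plot of CPM, crosses where the gene had no reads, and dashed lines at annotated coding transcripts (for EPHB2 its longest, at 10816 bases, lies outside the panel). EPHB1 drops to 729 bases in 3.11, and EPHB3 drops to 2020 bases in 3.11 and 1441 bases in 44a.

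The joined libraries could be set beside the clones they name. Among genes at least 2-fold apart between 44b and 3.11, with 5 CPM or more in either, 87.1% of 752 had a joined value between the clones, at a median position 72.6% of the way to 44b (quartiles 59.8% and 84.4%). EPHB1 lay at 80.7% of the way, EFNB2 at 51.8% and EPHB6 at 27.0%, and EFNB3 lay outside at 153%, above both clones. EPHB6 and EFNB3 were themselves below 5 CPM. Between 44a and 4.72, 93.4% of 640 genes lay between, at a median of 30.4% of the way to 44a, with EPHB1 at 21.6%, EPHB6 at 20.2% and EFNB3 at 17.4%. EPHB2 was less than 2-fold apart in both pairs of clones, and in 4.72-44a it had 39.9 CPM, below 42.0 CPM in 44a and 48.2 CPM in 4.72. The joined libraries had EPHB2 and EFNB2 levels on the side of their own genotype. A mix of 2 clones would be likely to lie there in any case. The joined libraries may be such mixes, so they add no support and are not counted as further clones.

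The A class of the same system, which pairs EPHA receptors with ephrin-A ligands tethered to the membrane by a lipid anchor, was led by EPHA2. Of 9 EPHA genes 5 passed the filter, 2 with positive and 3 with negative fold changes, and of 5 EFNA genes 3 passed, 1 positive and 2 negative. EPHA2 had 109, 167 and 153 CPM in 3.11, 44b and the joined library (WT/C134W), against 195, 242 and 215 CPM in 44a, 4.72 and the joined library (WT/WT). Its log2 fold change was -0.67 ± 0.25 (SE) with an adjusted p of 0.658 in edgeR's test. EPHA1 stood at -0.85 ± 1.09 (edgeR adjusted p = 0.917). Summed EPHA TPM was 72.8 to 76.7 in WT/C134W and 81.2 to 101 in WT/WT, and summed ephrin-A TPM 6.05 to 11.1 in WT/C134W and 5.09 to 6.93 in WT/WT. Among the ligands EFNA3 had a log2 fold change of -0.31 ± 0.88 (edgeR adjusted p = 0.981) and EFNA5 of 0.44 ± 2.2 (edgeR adjusted p = 0.992).

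Of the genes that carry Eph signals within the cell, 0 passed edgeR's adjusted threshold, as was the case for all 16416 genes tested. The kinase and phosphatase list, 11 of 11 tested, had 5 positive and 6 negative fold changes and a median of -0.02. SRC, the founding member of its kinase family, had 23.3, 35.7 and 31.8 CPM in 3.11, 44b and the joined library (WT/C134W), against 53.1, 59.2 and 52.6 CPM in 44a, 4.72 and the joined library (WT/WT), without overlap. Its log2 fold change was -0.93 ± 0.24 (edgeR adjusted p = 0.593). PTPN11, the phosphatase SHP2, stood at 0.35 ± 0.15 (edgeR adjusted p = 0.687).

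Adaptors that dock on activated receptors had a median of -0.18 over 13 of 15 tested, 5 positive and 8 negative. CBLB, a ubiquitin ligase, stood at 0.59 ± 0.19 (edgeR adjusted p = 0.633) and GRB10 at -0.42 ± 0.17 (edgeR adjusted p = 0.658).

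A list written here of PDZ and reverse signalling partners of ephrin-B had a median of -0.08 over 11 of 14 tested, 3 positive and 8 negative. Whether its members, SDC2 among them, act in reverse signalling in these cells was not tested. SDC2, a heparan sulphate proteoglycan of the cell surface, had 39.0, 68.9 and 66.5 CPM in 3.11, 44b and the joined library (WT/C134W), against 188, 108 and 140 CPM in 44a, 4.72 and the joined library (WT/WT). Its log2 fold change of -1.45 ± 0.39 had an adjusted p of 0.595 with edgeR and 0.0112 with DESeq2. SDCBP (syntenin), whose PDZ domains bind the ephrin-B tail, had 97.6, 70.8 and 81.3 CPM in the same WT/C134W libraries, against 57.3, 52.2 and 55.6 CPM in the WT/WT libraries. It stood at 0.62 ± 0.20 (edgeR adjusted p = 0.641). Neither gene overlapped between the genotypes. Proteases that cut ephrins and Eph receptors, with gamma-secretase, had a median of 0.02 over 10 of 11 tested, 5 positive and 5 negative. NCSTN, a gamma-secretase subunit, stood at -0.49 ± 0.15 (edgeR adjusted p = 0.633) and ADAM17 at 0.48 ± 0.21 (edgeR adjusted p = 0.682).

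Targets of the pathways known to set EPHB and ephrin-B levels elsewhere were read as well. Of 12 Wnt/TCF target genes 7 were tested, 3 positive and 4 negative with a median of -0.06. MYC stood at -0.28 ± 0.20 (edgeR adjusted p = 0.812) and TCF7 at 0.66 ± 0.73 (edgeR adjusted p = 0.906). Of 9 Notch target genes 5 were tested, 2 positive and 3 negative with a median of -0.57. HES1 and HEY1, both repressors downstream of Notch, stood on opposite sides. HES1 had 0.846, 2.67 and 3.84 CPM in 3.11, 44b and the joined library (WT/C134W), against 15.7, 7.29 and 8.74 CPM in 44a, 4.72 and the joined library (WT/WT). HEY1 had 1.96, 4.59 and 4.36 CPM in those WT/C134W libraries, against 0.295, 0.838 and 0.615 CPM in the WT/WT libraries. Their adjusted p with edgeR was 0.593 for HES1 and 0.643 for HEY1. The proliferation markers had a median of 1.08, with TTK at 1.07 ± 0.26 (edgeR adjusted p = 0.593) and CENPE at 1.58 ± 0.42 (edgeR adjusted p = 0.595).

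Over all 9 lists 76 distinct genes were tested, 16 with an unadjusted p under 0.05 in edgeR's test and 5 called by DESeq2, beside 7.57% and 2.04% over all genes. Of the 16, 7 were proliferation markers. DESeq2's calls were SDC2, HES1, TTK, CENPE and BUB1, the last of which was named after its value was seen.

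**Figure D4:**
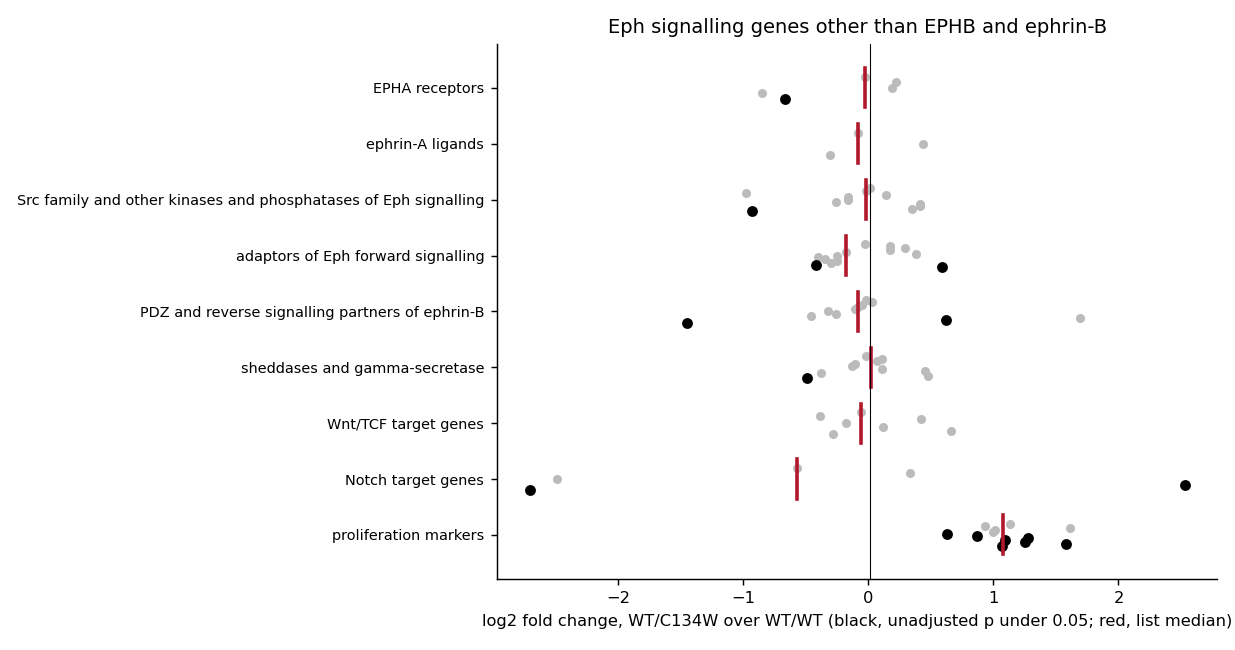
Fitted log2 fold change (x axis, WT/C134W relative to WT/WT) of each tested gene in 9 lists of Eph signalling and related genes, black where the unadjusted p was under 0.05, with red bars for list medians and a vertical line at the median of all genes. List medians lie between -0.57 and 1.08, and the proliferation markers are all on the positive side.

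The genes whose level ran closest to EPHB2 over the 6 libraries were sought among 13017 protein-coding genes, by the root-mean-square difference of centred log2(CPM + 1). They were IGFBP5 (0.0758), CCNG1 (0.123), EDA2R (0.126), CACNA1G (0.128) and TRIM22 (0.138). IGFBP5, which binds insulin-like growth factors, had 615, 684 and 658 CPM in 3.11, 44b and the joined library (WT/C134W), against 279, 336 and 298 CPM in 44a, 4.72 and the joined library (WT/WT). Closest to EFNB2 were SOD3 (0.147), P2RX5 (0.177), CPVL (0.186), GADD45B (0.188) and TAGLN (0.202). SOD3, the extracellular superoxide dismutase, had 17.3, 51.2 and 44.1 CPM in WT/C134W, against 98.8, 86.7 and 90.7 CPM in WT/WT. That SOD3 shares the spread of EFNB2 between the mutant clones follows from its choice by these same libraries. Adding 1 to the CPM compresses differences of rare genes, so that such genes can rank as close with a larger fold change. CACNA1G, at 1.43 to 2.48 CPM in WT/C134W and 0.231 to 0.385 CPM in WT/WT, had a fitted log2 fold change of 2.34 against 1.14 for EPHB2. CPVL, at 0.169 to 1.3 CPM in WT/C134W and 2.64 to 3.85 CPM in WT/WT, had -2.13 against -1.45 for EFNB2. No other member ran close to either gene, the nearest to EPHB2 being EPHB3 at 0.369.

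**Figure D5:**
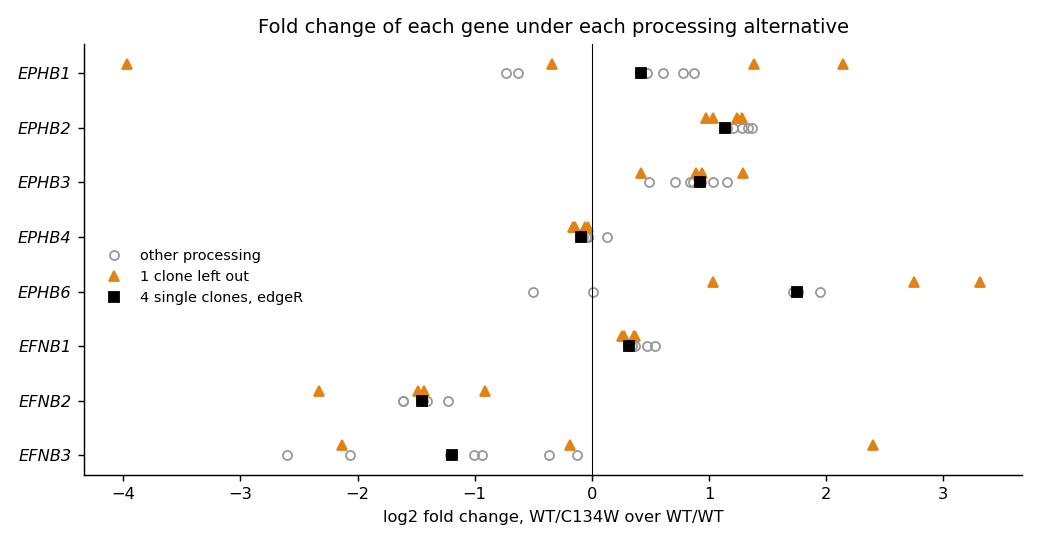
Fitted log2 fold change (x axis, WT/C134W relative to WT/WT) of each gene from the 4 single clones (black squares), under other processing (grey circles) and with 1 clone left out (orange triangles). EPHB2, EPHB3, EFNB1 and EFNB2 keep their side of 0, EPHB4 stays within -0.16 to 0.13, and EPHB1, EPHB6 and EFNB3 cross 0. Fits in which 1 genotype had only a library at 0 are left out for EPHB6 and EFNB3.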

How the data were processed

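RNA-seq gene tables of 6 KGN libraries were used, grouped by the genotype label. Per the file headers, RSEM wrote for every gene an expected count (an estimate of reads, with decimals), TPM, FPKM and a weighted transcript length. The authors' TPM, per the file headers, is a length-scaled value with an equal total in all libraries. FPKM was deposited too and not used. STAR 2.7.6a, RSEM 1.3.1, Picard 2.8.1, DESeq2 1.26.0 and R 3.6.3 appear in the submitters' processing notes, with no roles, beside the mouse build GRCm38, although the gene IDs are human. The annotation, the human build and the strand setting are not given. Symbols and coordinates came from GENCODE 29 (GRCh38), which held 58216 of 58336 IDs.

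Expected counts were rounded. The 4 single clones were compared with edgeR 4.0.16 in R 4.3.3 (filterByExpr, TMM, glmQLFit with robust estimation, glmQLFTest, Benjamini-Hochberg over all genes, threshold 0.05). CPM is TMM-normalised over the 6 libraries. The SE of a fold change is its size over the root of edgeR's F. The fits were tested on simulated data with 200 genes changed 4-fold. At a dispersion of 0.01 edgeR called all 200, and at 0.216, the value estimated from the 4 clones, it called 14. Alternatives used DESeq2 1.42.0, limma 3.58.1 (voom, and log2(TPM + 1) or log2(TPM + 0.1)), other scaling, filters and libraries. Genes, lists and tests were chosen with earlier results of these data known; 1 further list of genes is not reported here. All 8 members were named, up to 2 genes of each list by smallest p, and the 5 genes closest to EPHB2 and to the most abundant ligand.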

Additional observations from a re-analysis of the deposited data

How the results depend on the processing

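The fold changes of EPHB2 (0.97 to 1.37 on the log2 scale), EFNB2 (-2.33 to -0.91), EPHB3 (0.42 to 1.29) and EFNB1 (0.26 to 0.54) kept their direction under every alternative run. EPHB4 turned to 0.13 with library totals alone, a scaling that moved the median of all genes to 0.23. EPHB1 ranged between -3.97 and 2.14, EPHB6 stood at -0.50 with limma voom and at 3.31 without 44a, and EFNB3 stood at 2.40 without 44a. Without 44b the WT/C134W side had no reads of EPHB6 or EFNB3, so the fitted value there is no bound. The ligand to receptor difference of -1.91 lay between -2.32 and -1.49 when 1 clone was left out, and at -1.91 with counts per kilobase of a fixed length, a scale chosen after seeing the data. Genes called over the whole table numbered 0 in edgeR's test on the 4 clones (1243 at an unadjusted p under 0.05) and 0 whichever clone was left out. They numbered 511 with all 6 libraries, which takes the joined libraries as further clones, 283 with DESeq2, 664 without the low-count filter, 5 with the replicate block and 1 with limma on log2(TPM + 0.1). The block paired 44a with 44b, which share a stem, and 4.72 with 3.11, a pairing that the labels do not state. Pathway genes called numbered 0 in that same edgeR test, 7 with all 6 libraries, 5 with DESeq2 and 14 without the filter, and 0 whichever clone was left out. The cause of these differences was not tested. A fit with 1 clone of a genotype assumes that this clone varies like the others.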
